A study of Mus musculus with 4 samples.

Results

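The regions described here are 581 stretches of open chromatin that were called in both libraries of large-intestinal stem cells (LISC), in neither library of small-intestinal stem cells (SISC), and that lie in long rows along the genome. They were found by merging the peaks of the 4 deposited peak lists wherever they overlapped by at least 1 bp, which gave 119965 regions, 117196 of them on chromosomes 1 to 19. Regions in both lists of a group and in no list of the other group, called LISC-only and SISC-only, were then ordered along each autosome. A run is an unbroken series of such regions of a single direction with gaps of at most 100 kb, in which regions of any other kind may lie between the members. Runs of 10 or more LISC-only regions were kept, and there were 44 of them. Since the calls themselves chose the members, the absence of a SISC call and the crowding of LISC calls are part of the choice and carry no test.

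Open chromatin had been measured by ATAC-seq, in which the transposase Tn5 inserts sequencing adapters into accessible DNA. There are 2 groups of 2 libraries. All mice carried the Lgr5-EGFP-IRES-creERT2 allele, which puts EGFP under control of Lgr5, a receptor made by the stem cells at the base of the crypt, and were 6 to 12 weeks old. SISC were the Lgr5-EGFP+/CD24- cells of crypts from small-intestinal stretches taken close to the pylorus and close to the cecum. LISC came from the large intestine between cecum and rectum and were sorted on Lgr5-EGFP, for which the labels give no CD24 gate, and 50000 cells entered each library of either group. The labels do not state if replicates are different mice, but peaks on chromosome Y were called in replicate 1 of each group (6 for SISC, 8 for LISC) and in replicate 2 of neither.

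Stem cells of both tissues renew an epithelium of absorptive and secretory cells, and they differ in which genes their daughters will use. The large intestine takes up salt and water, secretes mucus and faces dense bacteria, while the small intestine digests and absorbs nutrients. Distal open regions often mark enhancers, and many enhancers in a row near a single gene are a known feature of genes that set the identity of a cell type. ATAC-seq does not show which gene a region acts on, so genes are named below by position alone.

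The number of peaks was 83443 in SISC replicate 1, 93220 in SISC replicate 2, 91313 in LISC replicate 1 and 88739 in LISC replicate 2. Read depth is unknown, and the absence of a call does not show closed chromatin. A peak within 1 kb of an annotated gene end was called in all 4 libraries at the stem cell genes Lgr5, Ascl2 and Smoc2, and at all 5 epithelial markers examined. Axin2, a Wnt target, had such a peak in SISC replicate 1 and LISC replicate 2 alone. Olfm4 and Gata4 of the small intestine had it in the SISC libraries alone, Car1 of the colon in the LISC libraries alone, and Hoxb13 of the hindgut in all 4. Of 12 immune markers 4 had such a peak in each SISC library and 3 in each LISC library, with Ptprc and Cd3e at 0 in all. Of 16 stromal, endothelial, muscle and glial markers the libraries had 10, 12, 10 and 6, of 16 enteroendocrine and tuft markers 9, 10, 11 and 9, and of 7 Paneth markers 4, 4, 3 and 4, in the order SISC 1, SISC 2, LISC 1, LISC 2. The part of other cell types in the runs was not tested.

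Within 1 kb of an annotated transcription start lay 25 members (4.30%, beside 3.30% of the LISC-only regions outside long runs and 22.1% of the regions called in all 4 libraries), and the promoter sequences of those that did are the run sequences that the reference tables hold. No start was available for many genes of the runs, among them Ikzf2, Car1, Car2 and Scnn1a. Members at the starts of such genes could not be counted, and how far this changes the shares was not tested. In 17 RefSeq promoter windows (GRCm38.p6, from 250 bases before a start to 50 from it on) the window overlapped a member. Shown here are 5, chosen because they belong to protein-coding genes or to strong members at non-coding ones. Il1r1, the receptor for interleukin-1, has an annotated start on the plus strand whose window (chr1:40224830-40225129) lay wholly inside a member. Il18r1, a chain of the interleukin-18 receptor, has 3 annotated starts at the end of the same run. The window shown, chr1:40465756-40466055 on the plus strand, belongs to the start that lies 25 bp beyond the last member and has 226 of its bases in it. Iqca, an AAA-domain protein with an IQ motif, has its window (chr1:90153387-90153686, minus strand) wholly inside the first member of another run. Gm28497 is a non-coding gene in the run beside Ikzf2, with the window chr1:69433412-69433711 on the plus strand and 84 bases in a member. Arhgap20os (chr9:51875836-51876135, minus strand) is a non-coding gene whose window lay wholly inside a member. Each sequence runs 5′ to 3′ on the strand of its gene. Capitals mark matches, on either strand, to any of 18 short motifs, named below where they were found.
Il1r1: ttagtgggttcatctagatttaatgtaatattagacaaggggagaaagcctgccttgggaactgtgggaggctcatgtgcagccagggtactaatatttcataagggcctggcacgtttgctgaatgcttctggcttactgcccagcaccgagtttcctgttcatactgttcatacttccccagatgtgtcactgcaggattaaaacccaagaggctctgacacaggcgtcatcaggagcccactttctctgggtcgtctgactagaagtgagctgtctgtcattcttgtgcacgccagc
Il18r1: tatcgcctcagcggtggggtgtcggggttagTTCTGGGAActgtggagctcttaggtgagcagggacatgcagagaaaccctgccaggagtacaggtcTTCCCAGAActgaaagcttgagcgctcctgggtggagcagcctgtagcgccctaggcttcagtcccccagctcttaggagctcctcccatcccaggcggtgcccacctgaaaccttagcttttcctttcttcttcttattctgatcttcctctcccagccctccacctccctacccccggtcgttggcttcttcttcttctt
Iqca: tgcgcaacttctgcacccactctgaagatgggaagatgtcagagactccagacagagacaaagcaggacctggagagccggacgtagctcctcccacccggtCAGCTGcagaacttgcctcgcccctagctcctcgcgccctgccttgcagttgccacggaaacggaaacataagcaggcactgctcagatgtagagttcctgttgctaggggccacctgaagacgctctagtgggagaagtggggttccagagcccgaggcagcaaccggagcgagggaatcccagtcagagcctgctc
Gm28497: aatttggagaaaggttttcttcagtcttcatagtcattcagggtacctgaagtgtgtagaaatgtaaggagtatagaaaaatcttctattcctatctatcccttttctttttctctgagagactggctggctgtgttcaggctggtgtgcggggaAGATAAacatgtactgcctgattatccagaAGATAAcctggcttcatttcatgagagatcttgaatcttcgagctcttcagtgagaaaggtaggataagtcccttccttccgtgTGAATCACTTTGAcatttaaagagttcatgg
Arhgap20os: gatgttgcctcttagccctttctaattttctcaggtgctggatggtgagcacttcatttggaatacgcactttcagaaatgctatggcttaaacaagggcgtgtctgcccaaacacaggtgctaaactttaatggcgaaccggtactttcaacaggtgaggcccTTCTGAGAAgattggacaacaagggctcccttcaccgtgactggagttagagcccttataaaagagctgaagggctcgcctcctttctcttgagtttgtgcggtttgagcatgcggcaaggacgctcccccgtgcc

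The Il1r1 window held no match to any of the 18 motifs. The Il18r1 window held TTCNNNGAA, the motif of STAT factors, at bases 32 and 99 of the window, and the Arhgap20os window held it at base 165. STAT matches were found in 2 of the 17 windows (11.8%) and in 8.30% of all 32851 windows in the table. The Gm28497 window held AGATAA, the GATA motif, at bases 156 and 186, and the AP-1 motif TGANTCA at base 270. Directly after the latter came CTTTGA, a TCF/LEF core of Wnt-responsive genes, at base 277. Only the last 84 bases of this window lie in the member. They hold the AP-1 and TCF/LEF matches, while both GATA matches lie outside the member. Iqca held the E-box CAGCTG at base 103. Over the 17 windows, CTTTGA was present in 4 (23.5%, against 16.0% of all windows), TGANTCA in 2 (11.8%, against 7.81%) and TTTATNG, the motif of CDX and posterior HOX factors, in 3 (17.6%, against 10.9%). CTTTGA and AGATAA can each occur within longer motifs, and several of the 17 windows overlap each other. The E-box was in 5 (29.4%, against 16.3%), AGATAA in 2 (11.8%, against 11.2%) and TGTTTAC, a forkhead motif, in 1 (5.88%, against 3.65%). No window held the HNF4 core CAAAGTCC (1.42% of all windows), GGGCGTGG of KLF factors (5.33%), CCACNAGG of CTCF (4.99%), CCGGAAGT of ETS factors (3.89%) or GGAATG of TEAD factors (14.7%). The other motifs searched were CCACACCC of KLF and SP factors (in 1 window, 3.56% of all), CATTGT of SOX factors (in 1, 12.6%), TTGGCA of nuclear factor I (in 2, 14.1%), TGTGGTT of RUNX factors (in 2, 5.27%), GTTAAT of HNF1 (in 2, 7.099%) and AGAACA of androgen and glucocorticoid receptors (in 3, 18.97%). With so few windows these shares describe these starts only, and a match is not a bound site.

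LISC-only calls made up 10.2% of autosomal regions (11919), and 4.87% of these 11919 lay in the 44 runs. The run beside Ikzf2 was the longest, with 31 regions over 549 kb, and 11 runs had 15 or more regions, holding 208 of the 581 members. A run spanned 263 kb at the median, from 51.2 kb at Cmah to 731 kb around Pdzrn3, and all spans together came to 13.2 Mb. Members covered 2.99% of the span of a run at the median and 13.9% at Cmah, where 10 regions lay in 51.2 kb of a single gene. Neighbouring members of a run were 13.7 kb apart at the median (interquartile range 4.17 to 37.6 kb), and 14 of the 537 gaps exceeded 90 kb. Runs were found on 16 of the 19 autosomes, with 6 each on chromosomes 1 and 3 and none on 5, 10 and 12. Of the 88 run ends, 39 had a SISC-only region as the next group-only region within 100 kb, and 49 faced a gap of over 100 kb. The closest pairs of runs were those at Vcam1 and Palmd, 639 kb apart, and at Ldlrad3 and Ehf, 746 kb apart.

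**Figure D1:**
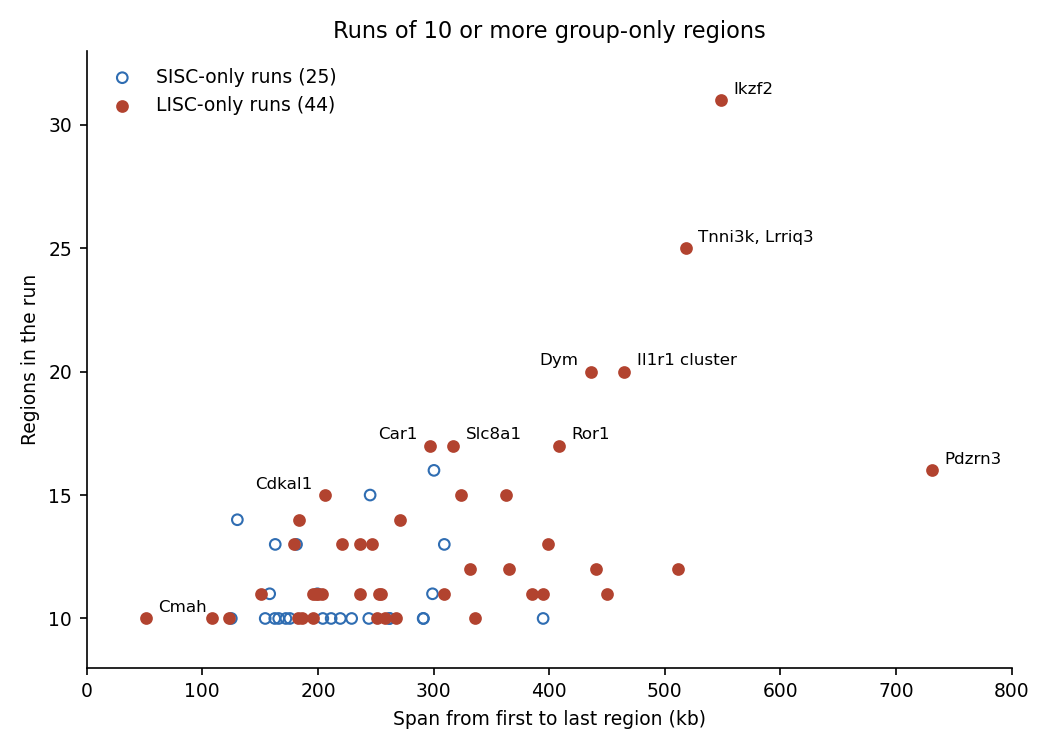
Each point is a run of 10 or more regions of a single direction, placed by its span from first to last region (x axis, kb) and its number of regions (y axis); filled points are the 44 LISC-only runs and open points the 25 SISC-only runs. The Ikzf2 run with 31 regions and the Tnni3k and Lrriq3 run with 25 stand above all others, and the longest SISC-only run has 16.

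By the same rule there were 25 SISC-only runs with 277 regions, 2.97% of the 9337 autosomal SISC-only regions, and the longest had 16. That order depended on a library of the other group: without SISC replicate 1 there were 42 LISC-only and 209 SISC-only runs. With a lone library in a group the rule is looser, and LISC-only runs numbered 75 without SISC replicate 2. Leaving out LISC replicate 1 gave 145 and leaving out LISC replicate 2 gave 132. With any of the 4 libraries left out, 463 to 561 of the 581 members were still in a LISC-only run, fewest without SISC replicate 1. Leaving out a library cannot take the LISC-only call from a member. Members could thus leave mainly where a newly SISC-only region split their run, so these counts are largely set by the rule. At a gap limit of 50 kb 16 runs remained and at 200 kb there were 95, so the number of runs is set by the rule.

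**Figure D2:**
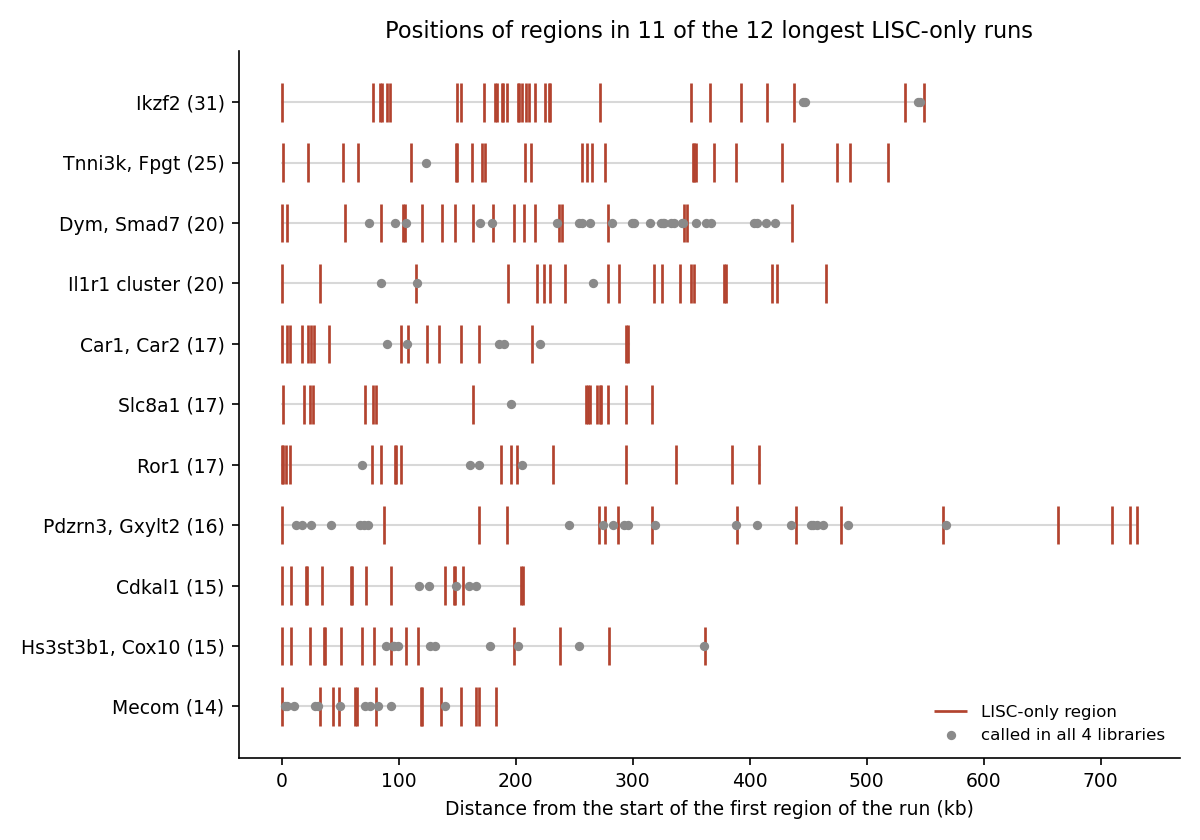
Of the 12 longest runs 11 are drawn, 1 per line, named by genes in the span with the number of members in brackets; the x axis is the distance in kb from the start of the first member. Vertical bars are LISC-only regions and grey points are regions called in all 4 libraries, of which the Dym run holds 27 and the Slc8a1 run 1.

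All 581 members had a fold enrichment over local background in both LISC lists, as the authors deposited it. It ran from 1.87 to 18.02 in LISC replicate 1 and from 1.84 to 12.8 in LISC replicate 2, with medians of 4.90 and 3.97. In 464 members (79.9%) the value was higher in replicate 1, the library whose list also has the higher median over all peaks (5.56 against 4.38). The order of members was alike in both libraries, with a Spearman correlation of 0.839 over the 581 members and 0.771 over the 11338 other LISC-only regions, both across regions that share their libraries. Peak summits of the 2 lists lay within 100 bp of each other in 481 members (82.8%), 29 bp apart at the median. Peaks of the 2 lists overlap in every member by the rule, and the same share for other regions is not given here. Fold enrichment of 5 or more in both libraries was found in 186 members (32.01%, against 20.6% of the other LISC-only regions), and of 10 or more in 11.

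**Figure D3:**
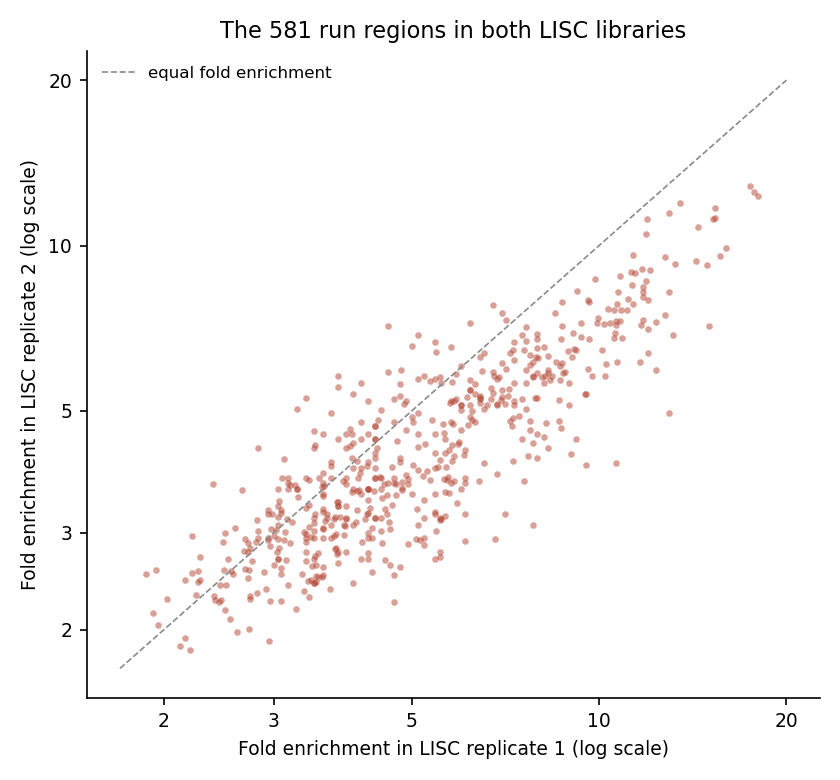
Each point is a member, with the authors' fold enrichment in LISC replicate 1 on the x axis and in LISC replicate 2 on the y axis, both on log scales; the dashed line marks equal values. Points run along the diagonal and mostly below it, with 464 of 581 higher in replicate 1.

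Members ranked higher within the LISC lists than LISC-only regions that stand alone, though the difference was small beside the spread of single regions. Each peak was given its percentile by −log10 q within its own list (0 weakest, 100 strongest). The median percentiles in LISC replicates 1 and 2 were 31.2 and 31.2 for lone LISC-only regions, 32.4 and 32.6 in runs of 2 to 4, 34.2 and 34.7 in runs of 5 to 9, and 38.9 and 41.0 in runs of 10 or more. Median widths of the merged regions were 464, 478, 512 and 562 bp in the same order. At the 50th percentile or above in both lists were 165 members (28.4%, against 17.3% of the other LISC-only regions), and under the 25th in both were 109 (18.8%, against 24.6%). Regions called in all 4 libraries were stronger, with median percentiles of 66.1 and 65.6 in the LISC lists. Just inside the threshold, the 100 regions of the 10 runs with exactly 10 had median folds of 4.98 and 3.77 and a median width of 611.5 bp, and just outside it the 207 regions of the 23 runs of 9 had 5.12 and 3.90 and 513 bp. For the gap limit, the widest gap inside a run was 99.6 kb, while the next LISC-only region lay 100.5 kb from the Ror1 run, 101.5 kb from the Iqca run and 101.6 kb from the run near Foxd2.

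The longest run (chr1:69241810-69790575) has Ikzf2, an Ikaros-family zinc finger factor best known from lymphocytes, as its overlapping gene. For 27 of its 31 members the end of Ikzf2 was the nearest gene end, but 5 lay in the gene body, and 24 stood in the gene desert on the side of Erbb4. There 17 followed each other with gaps of at most 20 kb over 81.0 kb, the closest of them 59.4 kb from Ikzf2. That closest member, chr1:69470686-69471856, had the highest mean rank of the run, with folds of 6.48 and 5.91 and −log10 q of 126 and 120 in LISC replicates 1 and 2. The highest folds of the run, 14.3 and 9.36, were those of chr1:69319264-69320257, 211 kb from Erbb4. The region over the upper end of Ikzf2 (chr1:69685841-69688081) was called in all 4 libraries at percentiles 66.0 and 73.0 in SISC and 74.5 and 71.1 in LISC, so the groups overlapped at the gene end. Of the other 3 regions of this span called in all 4 libraries, chr1:69689044-69689320 next to it ranked slightly lower in LISC (39.6 and 39.6, against 41.9 and 41.8), and the remaining pair, towards Spag16, ranked higher in LISC.

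Mecom, a zinc finger regulator with a SET-related domain, contained all 14 members of its run (chr3:30164227-30348143) in its body, which elsewhere held 4 SISC-only regions. Pbx3, a partner of HOX proteins, was nearest to 8 of the 12 members of a run on chromosome 2. That run had the largest median gap of all, 59.2 kb. The Pbx3 body held 1 SISC-only region, outside the run.

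A run of 11 regions at chr4:114648559-114901094 overlapped no protein-coding gene and ended 5.19 kb from Foxd2, a forkhead factor, with Foxe3 at 23.3 kb and Trabd2b at 33.5 kb. Its strongest member, 35.8 kb from Foxd2, had folds of 12.1 and 9.04. Ehf, an epithelial ETS factor, was nearest to 5 of 11 members of a run that also spans Pdhx and Apip. The run of 12 at chr16:76419154-76859592 held no gene either and lay 45.3 kb from Nrip1, a nuclear receptor co-repressor. Its folds were among the lower ones, with medians of 3.81 and 3.399.

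The interleukin-1 receptor family cluster carried 20 members over 465 kb (chr1:40000997-40465981). From Map4k4, a kinase, the run extends over Il1r2, a decoy receptor, Il1r1, Il1rl2, the receptor for interleukin-36, and Il1rl1, the receptor for interleukin-33, up to the start of Il18r1. Bodies of Il1r1 and Il1rl2 held 5 and 4 members, Il1rl1 held 2, and Map4k4, Il1r2 and Il18r1 held 1 each. The member chr1:40278988-40280229 in Il1r1 had the highest −log10 q of any member in LISC replicate 1, 316, with 149 in replicate 2 and folds of 12.8 and 9.54. In Il1rl2 the member chr1:40340435-40341538 reached −log10 q of 209 and 165 and folds of 15.4 and 11.7, and chr1:40193908-40194848, 27.6 kb before Il1r1, had folds of 17.5 and 12.8. Members lay over annotated starts of Il1r1 and Il18r1, the latter 47 bp from the upper end of Il1rl1, and 463 bp from the start of Il1rl2. No peak was called within 1 kb of an end of Il1rl2, Il1rl1 or Il18r1 in either SISC library.

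A further start of Il1r1 (base 40266586 of chromosome 1) lay in a region called in all 4 libraries, which the rule did not use. Its percentiles were 11.7 and 22.2 in SISC and 81.1 and 84.6 in LISC, with folds of 3.76 and 3.94 against 8.05 and 6.86. The groups did not overlap in rank. At the start of Il1r2 the groups overlapped, with 74.2 and 77.3 in SISC and 72.3 and 75.5 in LISC. Il33, the ligand of Il1rl1, was nearest to 5 of the 12 members of a run on chromosome 19 (chr19:29606918-29938787), 3 of them in its body. Il33 has 2 annotated starts, of which 1 lies in the span. The region at that start, called in all 4 libraries, had percentiles of 29.9 and 33.6 in SISC and 33.8 and 59.9 in LISC. At the other start, outside the span, the call was SISC-only. The Il33 body held 1 SISC-only region, outside the run.

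Carbonic anhydrases interconvert carbon dioxide and bicarbonate, and Car1 is abundant in the colonic epithelium. The run of 17 regions at chr3:14780048-15076636 spans Car1, Car3 and Car2. The Car1 body held 7 members, with the nearest 807 bp from its upper end, and Car2 was nearest to 9, of which 1 lay in its body. The strongest in replicate 1, chr3:15073524-15074452, stood 173 kb beyond Car2 with −log10 q of 123 and 122. The highest folds, 11.9 and 11.2, belonged to chr3:14932181-14933584, 31.4 kb from Car2. The region over the lower end of Car2 (chr3:14886060-14887170) was called in all 4 libraries at percentiles of 76.7 and 81.1 in SISC and 89.6 and 83.3 in LISC, so both LISC values were the higher ones by a narrow margin.

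Slc8a1, a sodium-calcium exchanger, was nearest to all 17 members of its run (chr17:81474091-81791050). In its body lay 11, and the other 6 lay beyond its annotated start within 51.9 kb. Of the latter, chr17:81752761-81753751 had the highest fold of any member in LISC replicate 1, 18.02, with 12.3 in replicate 2. Only 1 region in this span was called in all 4 libraries (chr17:81668967-81670703), at percentiles of 24.5 and 20.7 in SISC and 69.4 and 59.9 in LISC. Scnn1a, a subunit of the epithelial sodium channel that takes up sodium in the distal colon, was nearest to 2 of 10 members of a run on chromosome 6 (chr6:125322577-125658638), both in its body. That span is rich in genes and holds 38 regions called in all 4 libraries, the most of any run, and its median folds were low, 3.20 and 2.71. Slc6a2, a noradrenaline transporter, held 5 of the 13 members of a run shared with Mmp2, a matrix metalloprotease, and Lpcat2 and Capns2.

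Ror1, a receptor of Wnt ligands, held 13 of 17 members (chr4:100027632-100436148), and the region at its start, called in all 4 libraries, ranked at 57.9 and 69.7 in SISC and 80.0 and 77.7 in LISC. Dym, a Golgi protein, held 16 of the 20 members of a run on chromosome 18 that also reaches Smad7, an inhibitor of TGF-beta and BMP signalling, with 2 members, and Ctif with 1. Vcam1, a cell adhesion molecule, held 4 of 11 members of a run on chromosome 3 that extends to Cdc14a, a phosphatase.

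In some runs all or most members lay in the body of a single gene. Cdkal1, a tRNA-modifying enzyme, held all 15 members of its run, and its body elsewhere held 2 SISC-only regions. Pam, which amidates peptide hormones, held all 13, and Cmah, the hydroxylase that makes N-glycolylneuraminic acid, all 10. D7Ertd443e, of which less is known, held all 10 of its run, among them chr7:134447561-134449004 with −log10 q of 209 and 195 and folds of 13.0 and 11.5. Ldlrad3, a protein with an LDL-receptor domain, held 11 of 13. In 17 of the 44 runs a single gene body held at least 50% of the members.

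The second longest run, 25 regions at chr3:154970380-155488629, spans Tnni3k, a kinase of heart muscle, Fpgt and Lrriq3, with 4 members in the first, none in Fpgt and 7 in Lrriq3. Its median folds of 7.63 and 5.04 exceeded those of most runs, and its first member in Tnni3k had 17.7 and 12.5. The run over Gxylt2, Ppp4r2 and Pdzrn3 had the lowest density of all, 2.19 members per 100 kb. Hs3st3b1, a heparan sulfate sulfotransferase, was nearest to 11 and Cox10, of heme A synthesis, to 4 of the 15 members of a run on chromosome 11. Palmd, a palmdelphin of the cytoskeleton, was nearest to all 13 members of its run and held 6. Tbc1d4, a Rab GTPase-activating protein, held 8 of the 13 members of a run that also spans Commd6, Uchl3 and Lmo7. On chromosome 11, 12 members with low median folds (3.26 and 3.08) were spread over 365 kb and 13 genes from Larp1 to Lypd8, among them Irgm2 and Igtp, interferon-induced GTPases. A run of 14 regions on chromosome 18 was spread over Dpysl3, Gm3650, Eif3j2 and Jakmip2. Another run, of 11 on chromosome 4, lay wholly in Plppr1 and Acnat2. The bodies of Plppr1 and Lmo7 each held 2 SISC-only regions, outside the runs.

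Away from coding genes, 11 members at chr6:49930138-50080802 lay between Mpp6, at 29.4 kb, and Npy, the gene of neuropeptide Y, at 101 kb. Of these, chr6:49965704-49967127 had −log10 q of 161 and 189. The run of 11 at chr1:55820828-56020488 had Plcl1 as its nearest coding gene, at 66.5 kb, and its members came near starts of the non-coding genes Gm32949 and 1700003I22Rik. Other single members with high ranks were chr11:67400589-67401944 at the edge of the Gas7 run (−log10 q of 236 and 168), chr17:81742972-81743699 near Slc8a1 (219 and 134), chr3:117021890-117022860 near Palmd (186 and 133) and chr11:29800719-29802336 in Eml6 (218 and 109).

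In all, 98 protein-coding genes overlapped the 44 spans, 0.474% of the 20665 on the autosomes, and 71 of these held a member in their body. Of the 44 runs, 4 overlapped no coding gene, 16 overlapped 1 and 24 overlapped 2 or more. Members were 45.6 kb from the nearest gene end at the median, against 23.7 kb for LISC-only regions that stand alone. This was not particular to long runs: the median was 30.0 kb in runs of 2 to 4 and 39.8 kb in runs of 5 to 9. On either side of the threshold it was 61.2 kb in runs of 9 and 32.9 kb in runs of exactly 10. Within 1 kb of a gene end lay 19 members (3.27%, exact 95% interval 1.98 to 5.06%, which covers counting only), beside 3.73% of all autosomal LISC-only regions and 24.3% of the regions called in all 4 libraries. The 19 lay at 20 gene ends, among them those of Il1rl2, Il1rl1, Il18r1, Car1, Slc8a1, Gxylt2, Dpysl3, Palmd, Mmp2, Slc6a2, Ric1, Gm12250, Irgm2, Mvb12b, Glul, Eml6, Iqca, Myo10 and Thsd4. The strongest was at the lower end of Eml6, a microtubule-binding protein (chr11:29742085-29743149, −log10 q of 219 and 78.8), and the weakest by fold in replicate 1 was at the upper end of Glul, glutamine synthetase (folds of 2.99 and 3.24). Gene bodies held 317 members (54.6%), close to the 54.8% of lone LISC-only regions. Whether a member lies in an exon or an intron was not analysed here.

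Most genes in the spans had a call at an end in both tissues. Calls within 1 kb of a gene end were pooled over both ends of a gene, so they need not lie in a single region. They came from all 4 libraries for 75 of the 98 genes (76.5%), against 63.8% of all 20665 autosomal coding genes. For 11 genes there was no such call in any library, Tnni3k, Vcam1 and Vwf among them. For 10 genes the calls at both ends together came from both LISC libraries and neither SISC library. These were Il1rl2, Il1rl1, Il18r1, Car1, Slc8a1, Dpysl3, Palmd, Mmp2, Slc6a2 and Iqca. The reverse was found for none. These counts follow from the rule, which puts no SISC-only region inside a run. Other genes with a member at an end, such as Glul and Eml6, also had SISC calls at an end. Il1r1, whose annotated outer ends had no call, had its LISC-only member at an internal start.

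Of the gene lists, large-intestinal epithelium was the only list with genes in the LISC-only spans. Of its 26 genes Car1, Car2 and Scnn1a overlapped a span (11.5%, beside 0.474% of all coding genes), and Foxd2 was in addition nearest to a member. Of 24 small-intestinal genes matched on the autosomes none overlapped a LISC-only span, while Gata4, Mttp and Olfm4 overlapped SISC-only runs. The Scnn1a run was found under 5 of 11 alternatives and was lost, among others, without LISC replicate 1 and without SISC replicate 1. Of 24 stem cell and Wnt target genes none overlapped a span and Cd44 alone was nearest to a member. Lists of goblet and deep crypt secretory cells (16 genes), ion and water transport (21), Hox genes (39), epithelium of both tissues (13), immune cells (12), stromal, endothelial, muscle and glial cells (15), enteroendocrine and tuft cells (16) and Paneth cells (7) had 0 genes in LISC-only or SISC-only spans. These lists were drawn up with earlier results of these libraries known, so their counts are no independent evidence of a direction.

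Regions called in all 4 libraries took no part in the rule, and inside the 44 spans they ranked higher in LISC. There were 367 of them. Their median percentile was 55.8 and 59.8 in SISC replicates 1 and 2 and 69.4 and 68.9 in LISC replicates 1 and 2, a difference of means of 11.3 (57.8 ± 2.87 against 69.1 ± 0.316, SD, n = 2 each). Both LISC values lay above both SISC values, and the exact permutation test over the 4 libraries gave a two-sided p = 0.333, the smallest that 2 against 2 allow. Over all 56633 shared autosomal regions the medians were 64.0, 68.2, 66.1 and 65.6 in the same order, with no separation. In pooled cells, fewer cells with an open region and less opening per cell cannot be told apart.

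Region by region, 178 of the 367 (48.5%, exact 95% interval 43.3 to 53.7%) had both LISC percentiles above both SISC percentiles, beside 24.8% of all shared regions. The opposite order was found for 54 (14.7%, interval 11.3 to 18.8%), beside 29.3% of all shared regions. Intervals cover counting only and treat neighbouring regions as independent. At gene ends 27 of 60 shared regions (45.0%) were higher in both LISC libraries, beside 17.1% of all those at gene ends, and away from gene ends 151 of 307 (49.2%), beside 27.2%. The difference was thus not limited to distal regions. Inside SISC-only spans the order turned round, with 37 of 210 (17.6%) higher and 99 (47.1%) lower in both LISC libraries. When only the 41721 strongest peaks of each list were used, 3 LISC-only runs with 9 shared regions remained, of which 2 (22.2%) were higher in LISC, beside 22.8% of all.

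**Figure D4:**
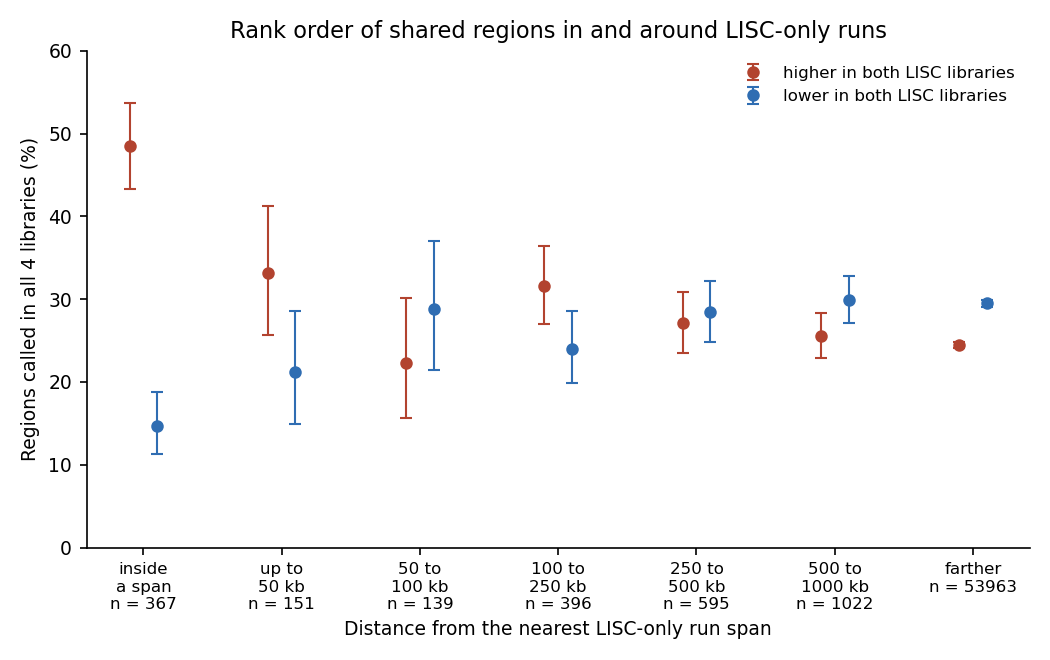
Regions called in all 4 libraries, grouped by distance from the nearest LISC-only span (x axis); the y axis is the percentage whose within-list percentile was higher (red) or lower (blue) in both LISC libraries than in both SISC libraries, with exact 95% intervals as bars. Inside the spans 48.5% were higher and 14.7% lower, while farther than 1000 kb away 24.5% were higher and 29.5% lower.

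Outside the spans this order was weaker. By the rule a span ends before a SISC-only region or before a gap of over 100 kb without group-only regions. The near flanks were thus chosen by the same calls, and how far this sets the shares there was not tested. Of 151 shared regions up to 50 kb from a span 33.1% were higher and 21.2% lower in both LISC libraries. From 50 to 100 kb the shares were 22.3% and 28.8%, and from 100 to 250 kb 31.6% and 23.99%. Beyond 500 kb they were close to those of all shared regions. The bin from 50 to 100 kb therefore stood below its neighbours on both sides, with overlapping intervals.

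By run, 41 of the 44 spans held a shared region; those at Palmd, Cmah and D7Ertd443e held none. In 29 of the 41 both LISC medians lay above both SISC medians, and in 1, at Thsd4, both lay below, on 2 shared regions. Among the 24 runs with 5 or more shared regions, 16 had both LISC medians above and none had both below. The run near Foxd2 had medians of 31.1 and 44.7 in SISC and 71.8 and 73.7 in LISC over 7 regions, among them 1 (chr4:114676862-114678837) with −log10 q of 279 and 187 in LISC against 13.3 and 26.8 in SISC. Glul had 39.8 and 36.4 against 65.6 and 77.0 over 10 regions, and the run at Iqca and Ackr3, a chemokine scavenger receptor, 45.8 and 36.3 against 74.6 and 75.5 over 5. At Dym, with 27 shared regions, SISC replicate 2 (64.0) and LISC replicate 2 (64.2) were nearly level. The gene-rich runs at Scnn1a, at Larp1 to Lypd8, at Ermp1 and Mlana and at Pdhx, Apip and Ehf showed no separation, and nor did those at Tbc1d4 and Lmo7, near Nrip1, at Mvb12b and Pbx3 or at Arhgap20 and Fdx1.

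**Figure D5:**
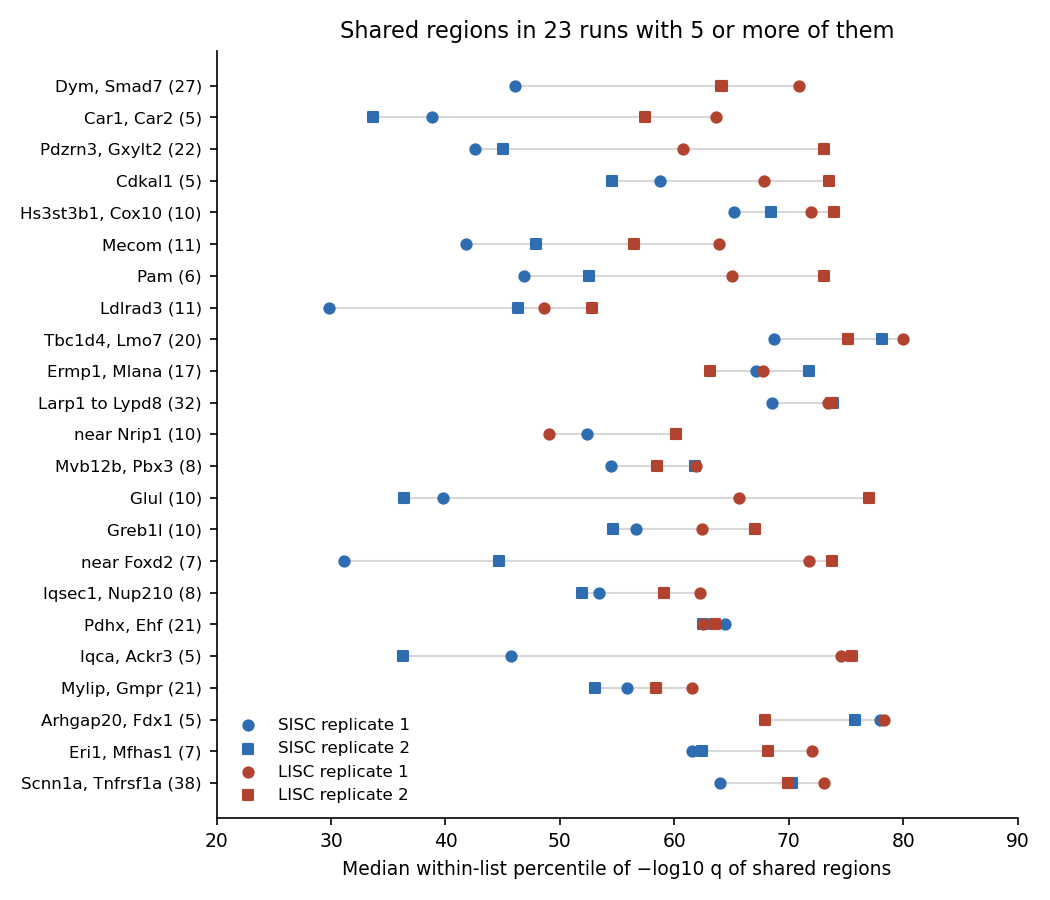
Of the 24 runs 23 are drawn; each line is a run with 5 or more regions called in all 4 libraries (their number in brackets), and the points are the median within-list percentile of −log10 q of those regions in each library, blue for SISC and red for LISC, circles for replicate 1 and squares for replicate 2. In 15 of the 23 runs drawn both red points lie to the right of both blue points.

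Promoters inside the spans followed the same order at some genes and not at others. Of 52 shared regions over annotated starts, 21 were higher and 8 lower in both LISC libraries, and 23 overlapped. The share over all shared regions at starts was not computed. Of all autosomal shared regions within 1 kb of a gene end, a related set, 17.1% were higher and 26.4% lower. The region over the start of Pdzrn3 had percentiles of 11.7 and 32.5 in SISC and 62.2 and 82.1 in LISC, and that over the start of Fem1al 34.4 and 42.2 against 83.9 and 77.5. At Lmo7, a LIM-domain protein of cell junctions, the values were 77.8 and 79.7 against 93.5 and 92.0, and at Hs3st3b1 88.3 and 77.1 against 95.7 and 93.8. At Lypd8, a colonic surface protein that binds flagellated bacteria, the groups overlapped, with 69.3 and 53.6 in SISC against 68.8 and 74.4 in LISC. The order was the opposite at Mvb12b, a subunit of the ESCRT machinery, with 69.5 and 70.3 in SISC and 65.2 and 48.2 in LISC.

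Regions called in some libraries only also leaned to LISC inside the spans. They were not members, but they come from the same peak calls that chose the spans, so this lean is no independent evidence. Of 70 regions called in 3 libraries, 56 (80.0%) had both LISC libraries, beside 47.7% of all such autosomal regions (exact 95% interval 68.7 to 88.6%). Of 238 regions called in a single library, 194 (81.5%) were in a LISC library, 84 in replicate 1 and 110 in replicate 2, beside 46.2% of all (interval 76.0 to 86.2%). The other 44 comprised 9 of SISC replicate 1 and 35 of SISC replicate 2. The 367 shared regions made up 28.9% of all 1271 regions in the spans, beside 48.3% on the autosomes, a share that the crowding of members lowers by construction.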

How the data were processed

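ATAC-seq peak lists of 2 SISC and 2 LISC libraries were used. The authors deposited a peak list for each library. The tools named are MACS2 2.2.7.1, Bowtie2 2.3.4.1, cutadapt 3.4, bedtools and Picard, and the build is mm10, per the submitters' processing notes. Settings, the shift for Tn5, the handling of duplicates and the peak threshold were not given in the sources used here. Each deposited peak carries a fold enrichment (a ratio over local background), a −log10 p, a −log10 q and a score derived from the −log10 q. The score and the −log10 p were not used further. Fold and q depend on the depth and background of a library, so ranks within a list were compared between libraries.

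Peaks were merged on an overlap of 1 bp and runs were built as described, with Python 3.11.15, numpy 2.4.6, pandas 2.3.3 and scipy 1.17.1; merging and run building were checked against bedtools 2.31.1 and on simulated data. Figures were drawn with matplotlib 3.10.9. Gene positions and starts came from RefSeq tables (GRCm38.p6, the build called mm10). Starts were lacking for many genes of the runs, so counts at starts cover only part of the genes. Groups were compared by the order of percentiles and an exact permutation test over libraries. The alternatives were gap limits, run lengths, peak strength, overlap, summit windows and each library left out. The members, gene lists and motifs were chosen with earlier results of these data known. Genes named are those overlapping the 25 longest runs (at most 4 per run, the nearest where none overlapped), genes of the lists in a span, genes with an end or start within 1 kb of a member, and positions of the strongest members; other genes were named after their values were seen, as were the shared regions given singly. A few genes, regions and sequences are not reported here.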

Additional observations from a re-analysis of the deposited data

Results flagged for a closer look

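The rule for runs covers chromosomes 1 to 19, and chromosome X was looked at in addition. It held a LISC-only run of 10 regions over 201.6 kb (chrX:133928079-134129698), a signal outside the main measurement. The span overlaps Srpx2, Sytl4, Cstf2 and Nox1, the last a superoxide-producing oxidase of the colonic epithelium. Median folds of the 10 regions were 5.23 and 3.82 in LISC replicates 1 and 2. The strongest, chrX:134041477-134042083, had −log10 q of 98.5 and 20.7 and lay 17.1 kb from Cstf2. The 8 regions of this span that were called in all 4 libraries had median percentiles of 58.5 and 62.7 in SISC and 63.8 and 58.8 in LISC, so the groups overlapped. Replicate 1 of each group had peaks on chromosome Y and replicate 2 of neither, and the part of this in the calls on X was not tested.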

How the results depend on the processing

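The 44 runs with 581 regions became 16 with 204 at gaps of at most 50 kb, 95 with 1255 at 200 kb, 3 with 36 when the 41721 strongest peaks of each list were used, 72 with 904 when peaks were required to cover 50% of the merged region, 106 with 1100 for runs of 8 or more and 22 with 349 for runs of 12 or more. Leaving out a library gave 42 to 145 runs and 562 to 1869 regions. Peaks with −log10 q of at least 5 (40 runs) and summit windows (42) moved the number little, as did lists cut to equal length (36), an alternative chosen after seeing the data. The share of regions near a gene end, 3.27%, was 16.7% with the strongest peaks and 6.20% within 2.5 kb, and 2.26 to 2.68% with a library left out. The share of shared regions higher in LISC, 48.5%, was 65.3% at 50 kb and 22.2% (2 of 9) with the strongest peaks. With a library left out it was 51.4 to 65.0%, always above the share over all shared regions in the same setting, by 17.7 to 32.2 percentage points. The runs at Il1r1 and at Tnni3k and Lrriq3 were found under all 11 alternatives tabulated by run, not counting the minimum run lengths. The cause of these changes was not tested, apart from the smaller number of peaks or libraries that each setting uses. Peak lists without read depth limit the comparison to calls and ranks. For the difference of 11.3 between LISC and SISC in the median percentile of shared regions, a replicate block (libraries paired by number, added after seeing the data) gave differences of 13.6 and 9.09 and an exact sign-flip p = 0.5, the smallest 2 pairs allow. Same-numbered libraries shared a number and the presence or absence of called peaks on chromosome Y. Their deviations from the group means correlated at 0.0327 over the 367 regions, which share their libraries. That value does not tell if same-numbered libraries shared a mouse or a batch, which was not tested. In the same spans, leaving out a library gave differences of 9.32 to 13.4, values with no test. For counts of calls no block can be fitted.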

Other observations

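Runs of 9 LISC-only regions, just short of the length required, numbered 23 and lay partly on chromosomes that have no longer run. On chromosome 5 they were at Shroom3, an organiser of apical actin (chr5:92710399-92901309), and at Arhgap24, and on chromosome 12 in a span with no protein-coding gene. The tightest was at Dlgap2, where 9 regions lay within 74.4 kb with median folds of 6.69 and 6.87 in LISC replicates 1 and 2. Other runs of 9 overlapped Nrp2, a co-receptor of semaphorins and VEGF, Sema6a, a semaphorin, and the group of Abcc4, Cldn10 and Dzip1, of which Cldn10 encodes a claudin of tight junctions. These genes were chosen after their values were seen.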
